A study of Mus musculus with 6 samples.

Results

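The integrin and laminin genes were taken from the heart RNA profiles of Cfp1-cKO and WT mice as the genes whose symbol is Itga or Itgb followed by digits, letters or both in that order, or Lama, Lamb or Lamc followed by a digit. The search found 39 of the 26881 genes in the deposited table. By what their products bind, 8 of them are leukocyte integrins, 19 are matrix-binding integrins and 11 are laminin chains. Itgb3bp encodes a centromere protein that is not an integrin subunit. There were 3 Cfp1-cKO and 3 WT libraries, each of heart RNA at 2 weeks of age from C57BL/6 mice. In Cfp1-cKO mice (Myh6-Cre: Cfp1 flox/flox, labelled CXXC1 null) the Myh6 promoter drives Cre in cardiomyocytes, so that the other cells of the heart were not targeted. The cross given in the methods, of Myh6-Cre: Cfp1 flox/wt with Cfp1 flox/flox mice, leaves a floxed allele in all offspring, so WT littermates of it would carry one too. Which of these genotypes the WT libraries came from, and whether with Cre, is not given in the sources used here, nor is the number of hearts behind a library. The p-values below therefore rest on the spread between libraries, which may be technical.

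Integrins are receptors at the cell surface, each made of an alpha and a beta subunit, that hold cells to the matrix or to other cells. Itgb1 is the beta subunit shared by most receptors for collagen, laminin and fibronectin. Itgb2 is made by leukocytes only and pairs with Itgal, Itgam, Itgax or Itgad, while Itgb7 pairs with Itga4 or Itgae in lymphocytes. Laminins are trimers of an alpha, a beta and a gamma chain that form the base of basement membranes. In heart muscle the sheath around each cardiomyocyte holds trimers of Lama2, Lamb1 or Lamb2, and Lamc1, which bind Itga7 with Itgb1 and the dystroglycan complex. Vessel walls use Lama4 and Lama5, and trimers with Lama3 and Lamb3 anchor epithelia through Itga3 and through Itga6 with Itgb4. Cfp1 is the CXXC zinc finger subunit of histone methyltransferase complexes and binds unmethylated CpG dinucleotides.

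Library totals, worked back from the steps of the FPKM values (fragments per kilobase of exon, scaled to the total of the library), were 16672652 to 22700811 fragments. Cxxc1, which encodes Cfp1, measured 9.66, 12.9 and 10.03 FPKM in the WT libraries, against 8.02, 9.94 and 8.74 FPKM in those of Cfp1-cKO, and its genotypes overlapped. FPKM over the entire gene and over all cell types of the heart are no measure of the deletion itself. Cardiomyocyte markers were high in every library, at a sum of 8156 to 16834 FPKM over 7 genes, and 4 of the 7 were lower in Cfp1-cKO hearts. All 3 Cfp1-cKO libraries also held lung epithelial transcripts. The 14 lung epithelium markers summed to 3236 to 4909 FPKM in Cfp1-cKO and to 0.433 to 3.96 FPKM in WT hearts, where Cldn18, Nkx2-1 and Lamp3 were listed at 0. As every Cfp1-cKO library carried this signal, no result could be given without it, and genotype and lung transcripts cannot be told apart in these libraries.

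Before any test, the 3 Cfp1-cKO values lay above the 3 WT values for 22 of the 39 genes and below them for 0. Among all 26881 genes this held for 33.1% (above) and 1.82% (below). Of the 39 genes, 21 had a mean of at least 1 FPKM and were tested with limma on log2(FPKM + 1), where fold changes of low genes are understated. Calls required a log2 fold change beyond 0.5 in either direction with an adjusted p (Benjamini-Hochberg) under 0.05. By this rule 7 of the 21 were higher in Cfp1-cKO hearts, among them Itgb2, Itga9, Itga1, Itga3, Itga5 and Lamb3, and 0 were lower. At an unadjusted limma p under 0.05 there were 14 higher and also 0 lower. The 7 calls became 3 without WT replicate 1, 3 without Cfp1-cKO replicate 2, 4 without Cfp1-cKO replicate 3 and 11 without WT replicate 3. Of all 11017 tested genes 22.8% were called, 21.1% as higher and 1.68% as lower. The median log2 fold change was 0.57 over the 21 genes and 0.35 over all tested genes, so that most genes shifted upward together. After median-of-ratios scaling, which brings the median of all tested genes to 0.00, 2 of the 21, among them Itgb2, were called higher and Itga7 lower, against 3.73% and 3.25% of all tested genes. Itgb2 passed the filter through its Cfp1-cKO values, since its WT mean lay below 1 FPKM.

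Because most leukocyte integrins fell below 1 FPKM, the fragments worked back from the FPKM steps were also fitted with voom of limma, an analysis added after seeing the data, for genes with a mean of at least 10 fragments. This fit took in 37 of the 39 genes and called 16 higher and 0 lower (26 and 0 at an unadjusted p under 0.05), and the 16 fell to 7 without WT replicate 1. Among all 14549 genes in it 25.8% were called higher and 1.28% lower. With median-of-ratios scaling it called 6 of the 37 higher (among them Itgb2, Itgal, Itgax, Itgae and Lama3) and 2 lower (Itga7 and Lamb2), beside 5.09% and 3.67% of all genes. Itgax, Itgae, Itgb7, Itga2, Itga11 and Lamc3 entered this fit through their Cfp1-cKO libraries, with a mean below 10 fragments in WT.

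**Figure D1:**
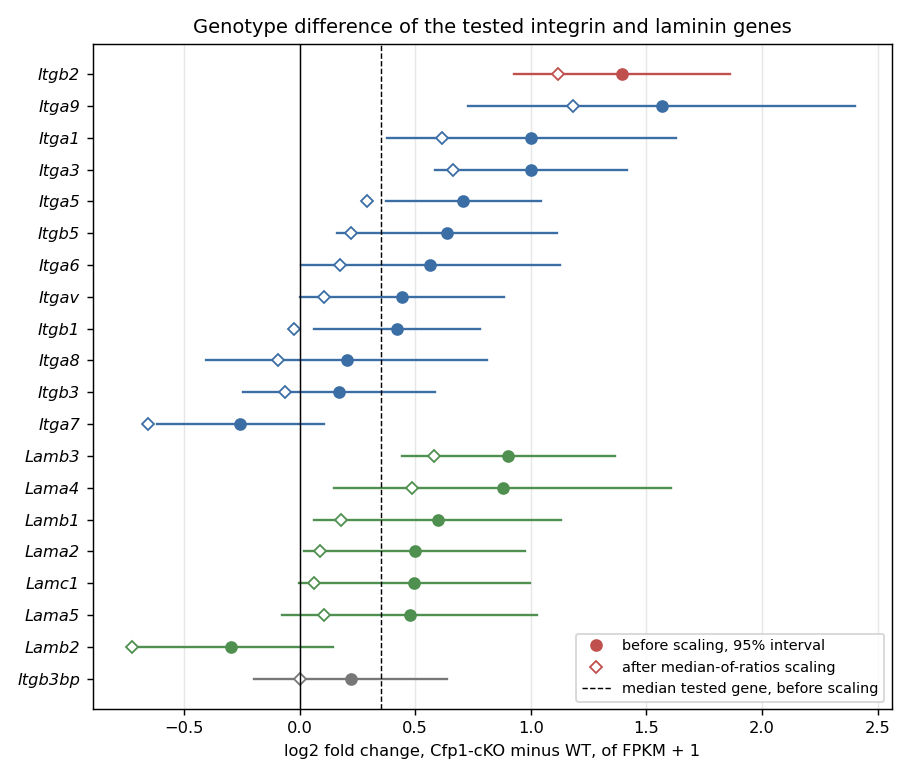
Log2 fold changes of FPKM + 1 (horizontal axis, Cfp1-cKO minus WT) for 20 of the 21 tested genes, with 95% intervals before scaling (filled circles and lines) and values after median-of-ratios scaling (open diamonds); red marks leukocyte integrins, blue matrix-binding integrins, green laminins and grey Itgb3bp. Itga9 lies farthest to the right at 1.57, the dashed line marks the median tested gene at 0.35, and Itga7 and Lamb2 lie left of 0.

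Promoter sequences from RefSeq (GRCm38.p6, 250 bases before to 50 after a transcript start) were matched for 25 of the 39 genes. Since Cfp1 binds CpG, the windows were described by their CpG dinucleotides. The median over all 32851 promoters was 7 CpG. The 4 matched leukocyte integrins (Itgam, Itgax, Itgb7 and Itgb2l) held 2 to 6 CpG, the 15 matched matrix-binding integrins held 6 to 27 with a median of 13, and the 5 matched laminins held 1 to 24 with a median of 4. The pairs below are shown because the genes of a pair belong to the same group and 1 gene of each was called in 1 of the fits while the other was not. They give the 250 bases before the start, 5′ to 3′ on the gene's strand, in lower case with each CpG in capitals. Itgax (chr7:128129300-128129549 on the plus strand) and Itgam (chr7:128062390-128062639 on the plus strand) are neighbouring leukocyte genes.
Itgax: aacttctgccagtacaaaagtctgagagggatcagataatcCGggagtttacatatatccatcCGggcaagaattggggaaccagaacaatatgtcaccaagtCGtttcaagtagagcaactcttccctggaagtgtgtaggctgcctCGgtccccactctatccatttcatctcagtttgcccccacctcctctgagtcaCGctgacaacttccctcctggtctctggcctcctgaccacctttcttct
Itgam: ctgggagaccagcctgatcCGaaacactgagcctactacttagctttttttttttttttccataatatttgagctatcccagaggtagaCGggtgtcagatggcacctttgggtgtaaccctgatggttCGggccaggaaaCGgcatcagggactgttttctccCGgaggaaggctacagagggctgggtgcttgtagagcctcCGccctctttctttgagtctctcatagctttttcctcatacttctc
Itga3 (chr11:95076715-95076964 on the minus strand), which was called, and Itgb1 (chr8:128685404-128685653 on the plus strand), which was not, are both rich in CpG.
Itga3: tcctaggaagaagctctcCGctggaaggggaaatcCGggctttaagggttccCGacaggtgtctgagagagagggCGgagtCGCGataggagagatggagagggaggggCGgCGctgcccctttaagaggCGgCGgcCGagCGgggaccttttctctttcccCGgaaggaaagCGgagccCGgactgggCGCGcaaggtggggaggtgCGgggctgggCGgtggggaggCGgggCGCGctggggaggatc
Itgb1: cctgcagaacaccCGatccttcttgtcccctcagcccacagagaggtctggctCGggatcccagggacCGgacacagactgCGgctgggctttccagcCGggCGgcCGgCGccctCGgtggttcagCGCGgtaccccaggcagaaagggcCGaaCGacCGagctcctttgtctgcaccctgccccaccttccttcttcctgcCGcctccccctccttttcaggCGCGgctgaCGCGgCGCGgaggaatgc
Lamb3 (chr1:193301744-193301993 on the plus strand), which was called, and Lamb1 (chr12:31265043-31265292 on the plus strand), which was not, differ in CpG.
Lamb3: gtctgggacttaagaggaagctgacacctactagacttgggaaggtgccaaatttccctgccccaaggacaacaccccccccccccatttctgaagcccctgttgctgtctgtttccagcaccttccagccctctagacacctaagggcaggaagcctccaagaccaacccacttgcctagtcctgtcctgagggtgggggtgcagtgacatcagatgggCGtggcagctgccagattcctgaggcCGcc
Lamb1: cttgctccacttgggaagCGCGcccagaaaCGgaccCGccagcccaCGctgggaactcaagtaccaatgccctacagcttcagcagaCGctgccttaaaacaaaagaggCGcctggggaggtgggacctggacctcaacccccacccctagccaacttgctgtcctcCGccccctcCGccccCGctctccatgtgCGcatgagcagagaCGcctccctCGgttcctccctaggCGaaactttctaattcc
The whole 300-base window held 5 CpG for Itgax, 6 for Itgam, 24 for Itga3, 27 for Itgb1, 2 for Lamb3 and 18 for Lamb1. The Lamb3 window lies 94295 bases from the start of the longer GENCODE gene. Those of Itga9, Itgb3bp and Lama2 lie 105002, 100655 and 2816 bases from the starts of their genes. Called members were found with both CpG-rich and CpG-poor windows. The pairs were picked by their calls and not all members were matched, so this is a description only. Whether CpG content bears on the calls was not tested. On either strand, GAGGAA, the core bound by PU.1 of myeloid cells, stood in 3 of 4 leukocyte, 5 of 15 matrix-binding and 5 of 5 laminin windows and in 28.3% of all promoters. GGGCGG, the GC box, stood in 1, 7 and 3 of them and in 35.7% of all promoters. TGANTCA, the AP-1 site, stood in Itgax, in Itga9 and in 0 laminin windows, and in 7.81% of all promoters. TATAAA was in 0 of these windows and in 13.6% of all promoters. None of the searched motifs contains another, and a match is not a measured binding site.

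Of 7 leukocyte integrins in the fragment fit 5 were called higher in Cfp1-cKO hearts, beside 25.8% of all genes in it, and 3 of the 5 (Itgax, Itgae and Itgb7) entered it through their Cfp1-cKO libraries. Itgb2, Itgal, Itgax and Itgae were called both before and after scaling and Itgb7 before it only, while Itgam and Itgad were not called. Their summed level was 1.53, 1.49 and 1.76 FPKM in WT, as against 5.89, 8.28 and 9.53 FPKM in Cfp1-cKO hearts. The genotypes did not overlap. In bulk heart RNA, more cells of a type and more RNA per cell cannot be told apart.

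Itgb2, the beta subunit of the leukocyte receptors for complement and intercellular adhesion molecules (chromosome 10 from 77530252 to 77565708, GRCm38), had WT values of 0.808, 0.678 and 0.855 FPKM and Cfp1-cKO values of 2.59, 3.81 and 4.91 FPKM. Every Cfp1-cKO library lay above every WT library. The means were 0.780 ± 0.0918 and 3.77 ± 1.16 FPKM (SD, n = 3 each). The log2 fold change came to 1.39 (SE 0.20, limma adjusted p = 0.00533), and 1.12 (adjusted p = 0.00994) after scaling. Itgb2 kept its call under all 18 alternatives that were run.

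Itgal, the alpha subunit that lets lymphocytes and other leukocytes bind Icam1 (chromosome 7 from 127296260 to 127335138), measured 0.208, 0.258 and 0.245 FPKM in the WT libraries, against 0.891, 1.44 and 1.31 FPKM in those of Cfp1-cKO. These values came from 31, 32 and 29 fragments in WT and from 114, 158 and 155 fragments in Cfp1-cKO libraries. The groups did not overlap, and the log2 fold change in the fragment fit was 2.31 (adjusted p = 0.00419 from voom of limma), or 1.80 (adjusted p = 0.00958) after scaling. Itgal stood in a like proportion to Itgb2 in both genotypes, with 25.7, 38.1 and 28.7 FPKM per 100 FPKM of Itgb2 in WT, as against 34.4, 37.8 and 26.7 in Cfp1-cKO hearts.

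Itgax, the alpha subunit that marks dendritic cells and lung macrophages (chromosome 7 from 128129547 to 128150657), had 6, 4 and 2 fragments in WT, as against 65, 148 and 183 in Cfp1-cKO libraries. In FPKM this was 0.0550, 0.0442 and 0.0231 in WT, as against 0.695, 1.85 and 2.12 in Cfp1-cKO hearts. The log2 fold change was 4.95 (adjusted p = 0.00589 from voom of limma), and 4.46 (adjusted p = 0.0106) after scaling. Its neighbour Itgam, the alpha subunit of monocytes, neutrophils and many macrophages (chromosome 7 from 128062640 to 128118491), had WT values of 0.281, 0.222 and 0.365 FPKM and Cfp1-cKO values of 0.337, 0.334 and 0.387 FPKM. Its genotypes overlapped, with a log2 fold change of 0.31 (adjusted p = 0.528) that turned to -0.23 after scaling. In GENCODE, 68.7% of the exon bases of Itgam are shared on the same strand with Gm49368, so its fragments may have been assigned in part elsewhere. Per 100 FPKM of Itgam, Itgax measured 19.6, 19.9 and 6.34 FPKM in the WT libraries, against 206, 553 and 547 FPKM in those of Cfp1-cKO, and these ratios did not overlap. Itgad, the next gene along chromosome 7, lay between 0.0879 and 0.172 FPKM in WT and between 0.106 and 0.148 FPKM in Cfp1-cKO hearts (log2 fold change 0.00, adjusted p = 0.998 from voom of limma), and its value is uncertain. In a library made without strand, 8.60% of its exon bases lie opposite 4931431B13Rik, 2.26% opposite Gm39091 and 1.55% opposite Cox6a2, a cytochrome oxidase gene of striated muscle, and 7.32% are shared on the same strand with the pseudogene Gm17831.

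Itgae, the alpha subunit by which lymphocytes and some dendritic cells of epithelia hold E-cadherin (chromosome 11 from 73090583 to 73147446), was seen with 0, 2 and 0 fragments in WT and with 36, 25 and 21 in Cfp1-cKO libraries. A count of 0 allowed up to 0.0288 FPKM in WT replicate 1 and 0.0364 FPKM in WT replicate 3. The Cfp1-cKO values were 0.403, 0.327 and 0.254 FPKM, and the WT value above 0 was 0.0232 FPKM. Per fragment of library total, Itgae was 45.1 times as high in Cfp1-cKO hearts, with a 95% exact interval of 12.1 to 378 that covers counting error only, and it was called in the fragment fit (adjusted p = 0.00381, and 0.0105 after scaling, from voom of limma). Its partner Itgb7 (chromosome 15 from 102215995 to 102231935) had WT values of 0.0321, 0.0967 and 0.101 FPKM and Cfp1-cKO values of 0.730, 0.372 and 0.364 FPKM, with no overlap. The log2 fold change of Itgb7 was 2.65 (adjusted p = 0.0208 from voom of limma), and 2.096 (adjusted p = 0.0877) after scaling, which ended the call, as did leaving out WT replicate 1. Itgb2l, a relative of Itgb2, had 0 to 4 fragments in WT and 2 to 6 in Cfp1-cKO libraries and was not tested.

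**Figure D2:**
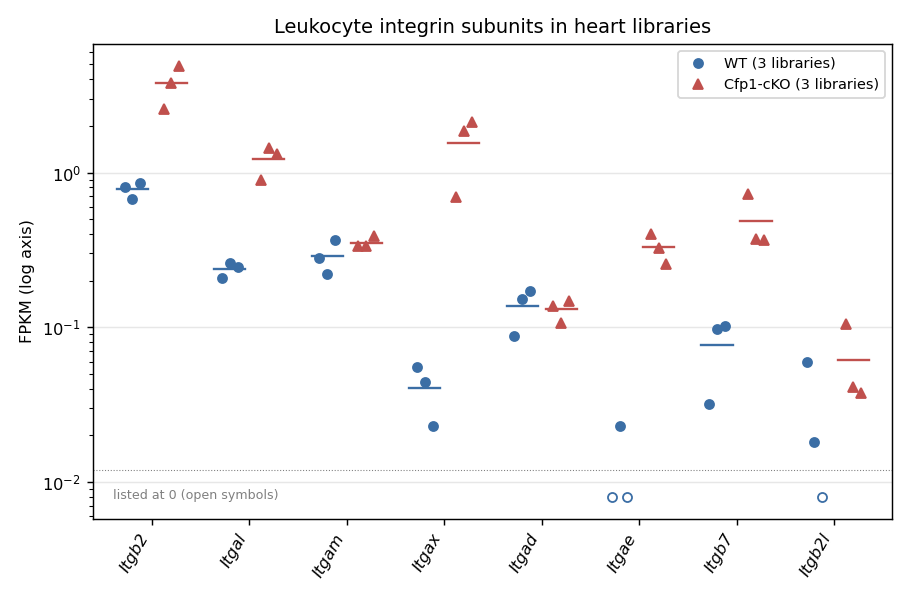
FPKM (log axis) of the 8 leukocyte integrin subunits, 1 symbol per library, blue circles for WT and red triangles for Cfp1-cKO; short lines mark means where no library is at 0, and open symbols mark libraries listed at 0. Itgb2, Itgal, Itgax, Itgae and Itgb7 separate by genotype, and Itgam, Itgad and Itgb2l overlap.

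Leukocyte markers moved in the same direction. Of 10 general leukocyte markers 8 were tested, 2 of them through their Cfp1-cKO values. Of these, 7 were called higher (3 after scaling) and 0 lower. Among all tested genes 21.1% were called higher before scaling and 3.73% after it. They were led by Laptm5, a lysosomal protein of leukocytes (log2 fold change 1.52, adjusted p = 0.00374 from limma). The summed level of the 10 markers was 10.5 to 16.2 FPKM in WT and 33.4 to 45.5 FPKM in Cfp1-cKO hearts. Of 8 macrophage markers 7 were tested and 3 were called higher (1 after scaling), beside the same shares of all tested genes. The macrophage markers summed to 38.7 to 53.3 and 61.0 to 98.1 FPKM. The 5 alveolar macrophage markers summed to 0.388 to 3.56 FPKM in WT and 21.3 to 97.9 FPKM in Cfp1-cKO hearts, with Ear1 and Marco listed at 0 in every WT library. The T and NK cell markers summed to 0.252 to 0.619 and 1.81 to 3.65 FPKM, and 8 of 9 lay higher in Cfp1-cKO hearts without overlap, as did 33.1% of all genes. The B cell markers summed to 0.153 to 0.606 and 1.58 to 2.63 FPKM, and 4 of 5 did so. Neutrophil markers overlapped, at 2.79 to 25.7 and 4.57 to 22.8 FPKM, and 0 of the 3 tested with limma, out of 7, were called. Dendritic cell markers summed to 2.99 to 4.14 and 4.69 to 5.43 FPKM, and 4 of 5 lay higher without overlap, but 0 of the 2 tested were called. In both lists 0 genes had an unadjusted p under 0.05, and voom called 0 of them.

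Within the Cfp1-cKO libraries, the leukocyte integrins did not all peak in the same library. Itgax was lowest in replicate 1, as were the summed alveolar macrophage markers, at 21.3, 62.2 and 97.9 FPKM. The general leukocyte markers were also lowest there, at 33.4, 45.5 and 35.1 FPKM. Itgb7 was highest in replicate 1, as were the summed T and NK cell markers, at 3.65, 1.81 and 1.91 FPKM. So were the B cell markers, at 2.63, 2.53 and 1.58 FPKM, and the macrophage markers, at 98.1, 93.0 and 61.0 FPKM. Neither order was thus particular to 1 marker list. These orders rest on 3 libraries and were not tested.

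Set against Ptprc, which encodes the pan-leukocyte protein CD45, the subunits divided differently. Itgb2 was at 2.78, 2.85 and 2.66 times the FPKM of Ptprc in WT and at 3.14, 4.23 and 4.85 times in Cfp1-cKO hearts. Itgax was at 0.149 ± 0.0668 times the level of Ptprc in WT and at 1.66 ± 0.709 times in Cfp1-cKO hearts. Itgam was at 1.011 ± 0.108 and 0.387 ± 0.0196 times (SD, n = 3 each), and neither overlapped between genotypes. Itgal and Itgb7 overlapped on this measure. The part that these cell markers, and the lung transcripts, had in the levels of the leukocyte integrins was not tested.

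**Figure D3:**
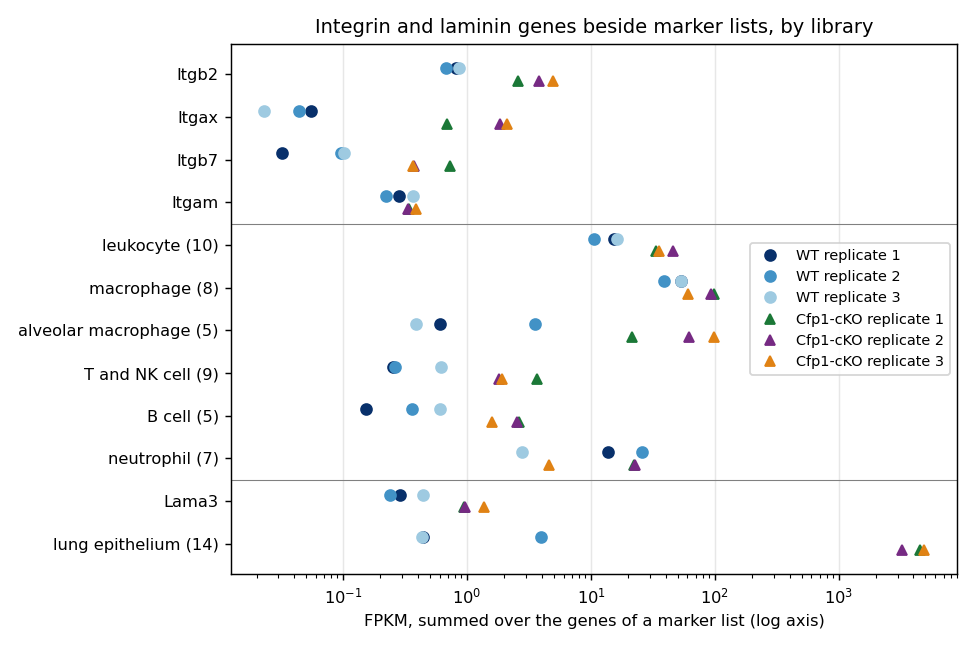
FPKM by library (log axis) of integrin and laminin genes and of marker lists, the latter summed over the number of genes given in brackets; circles are WT and triangles Cfp1-cKO libraries, colored by library. Itgax and the alveolar macrophage markers are lowest in Cfp1-cKO replicate 1, Itgam and the neutrophil markers overlap between genotypes, and lung epithelium markers reach 3236 to 4909 FPKM in Cfp1-cKO libraries.

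Matrix-binding integrins formed the bulk of integrin RNA, and 4 of the 11 tested, Itga9, Itga1, Itga3 and Itga5, were called higher and 0 lower, beside 21.1% and 1.68% of all tested genes. After scaling limma called 0 of the 11 higher, against 3 at an unadjusted p under 0.05, and Itga7 lower, and the scaled fragment fit called the same counts among all 19. Beside them, 1 of 6 fibroblast, 1 of 5 tested smooth muscle and 2 of 3 tested mesothelial markers were called higher before scaling. Of the 3 mesothelial markers, 1 passed the filter through its Cfp1-cKO values. Of the 6 fibroblast markers, 4 were higher at an unadjusted limma p under 0.05, and 0 were called after scaling. They summed to 224 to 274 FPKM in WT and 311 to 427 FPKM in Cfp1-cKO hearts, without overlap. All 19 matrix-binding integrins summed to 232, 243 and 221 FPKM in WT and to 311, 354 and 323 FPKM in Cfp1-cKO hearts. Per 100 FPKM of matrix-binding integrins there were 0.659, 0.615 and 0.795 FPKM of leukocyte integrins in WT, as against 1.89, 2.34 and 2.95 in Cfp1-cKO hearts, so that the leukocyte group was the more raised in each Cfp1-cKO library. This ratio is a description, not a test.

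Itgb1, the common beta subunit (chromosome 8 from 128685654 to 128733200), measured 178, 195 and 151 FPKM in the WT libraries, against 225, 254 and 221 FPKM in those of Cfp1-cKO. The groups did not overlap, but its log2 fold change of 0.42 (SE 0.16, limma adjusted p = 0.0778) did not pass and fell to -0.02 after scaling. Itgb1 made up 92.4% ± 2.62 of the FPKM of all beta subunits in WT and 90.4% ± 0.989 in Cfp1-cKO hearts (SD, n = 3 each), with overlap. Itgb2 made up 0.421%, 0.330% and 0.508% of beta subunit FPKM in WT, as against 1.04%, 1.37% and 1.99% in Cfp1-cKO hearts, with none.

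Among collagen receptors, Itga1, the collagen-binding alpha subunit of vessels and stromal cells (chromosome 13 from 114958079 to 115101964), had WT values of 5.04, 2.93 and 7.23 FPKM and Cfp1-cKO values of 8.95, 13.4 and 9.94 FPKM. Its log2 fold change came to 1.00 (SE 0.27, limma adjusted p = 0.0351). The call was lost after scaling (0.62, adjusted p = 0.182) and when any 1 library other than WT replicate 3 was left out. Itga2, a collagen receptor of platelets and epithelia, had 0.157, 0.0126 and 0.171 FPKM in WT, as against 0.244, 0.527 and 0.224 FPKM in Cfp1-cKO hearts. Itga11, of fibroblasts, measured 0.0859, 0.0207 and 0.119 FPKM in the WT libraries, against 0.280, 0.175 and 0.281 FPKM in those of Cfp1-cKO. Neither was called in the fragment fit (adjusted p = 0.101 and 0.0526 from voom of limma), although their genotypes did not overlap. Itga10 ranged from 0.314 to 0.739 FPKM over the 6 libraries and overlapped, and 33.5% of its exon bases are shared with Gm42957.

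Among laminin receptors, Itga3 and Itgb4 of epithelia were called higher before scaling, and Itga7 of muscle was called lower after it. Itga3, the epithelial laminin receptor subunit (chromosome 11 from 95044474 to 95076801), had WT values of 1.79, 2.05 and 2.45 FPKM and Cfp1-cKO values of 4.81, 4.34 and 6.58 FPKM. Its log2 fold change came to 1.00 (SE 0.18, limma adjusted p = 0.0117), and 0.66 (adjusted p = 0.0504) after scaling. Itgb4, the beta subunit of hemidesmosomes, measured 0.126, 0.121 and 0.285 FPKM in the WT libraries, against 0.410, 0.573 and 0.388 FPKM in those of Cfp1-cKO, and it was called in the fragment fit only before scaling (log2 fold change 1.46, adjusted p = 0.0371; 0.91, adjusted p = 0.177 after). It lost this call when any 1 library other than WT replicate 3 was left out. Itga6, which pairs with either beta subunit, ranged from 4.94 to 6.504 FPKM in WT and from 6.31 to 13.0 FPKM in Cfp1-cKO hearts and was not called (log2 fold change 0.57, adjusted p = 0.111 from limma).

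Itga7, the laminin receptor subunit of striated muscle (chromosome 10 from 128933818 to 128958282), had WT values of 8.82, 11.2 and 9.86 FPKM and Cfp1-cKO values of 7.40, 7.86 and 9.30 FPKM. The genotypes overlapped, and the log2 fold change came to -0.26 (SE 0.16, limma adjusted p = 0.231). After scaling it was -0.66 (adjusted p = 0.0428), and -0.82 (adjusted p = 0.0264) in the scaled fragment fit, so that its call depends on the scaling. Its share of integrin alpha subunit FPKM was 21.2%, 29.2% and 18.0% in WT, as against 10.8%, 9.37% and 10.9% in Cfp1-cKO hearts, without overlap. The cardiomyocyte marker Tnnt2, cardiac troponin T, was lower too (log2 fold change -0.89, adjusted p = 0.0354 from limma). Per 100 FPKM of Tnnt2, Itga7 measured 1.20, 1.57 and 1.39 FPKM in the WT libraries, against 1.73, 3.02 and 1.79 FPKM in those of Cfp1-cKO. The part of fewer or weaker cardiomyocyte transcripts in the level of Itga7 was not tested.

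Among receptors for fibronectin, vitronectin and fibrinogen, Itga5, the fibronectin receptor subunit (chromosome 15 from 103344286 to 103366763), had WT values of 10.3, 10.2 and 12.7 FPKM and Cfp1-cKO values of 19.5, 18.1 and 18.4 FPKM. Its log2 fold change came to 0.71 (SE 0.15, limma adjusted p = 0.0165), and 0.29 (adjusted p = 0.259) after scaling. The call was also lost without WT replicate 1 and without Cfp1-cKO replicate 2. Itgb5, a vitronectin receptor subunit, measured 11.8, 7.72 and 14.1 FPKM in the WT libraries, against 17.3, 16.9 and 18.3 FPKM in those of Cfp1-cKO, without overlap, and was called in the fragment fit (log2 fold change 0.69, adjusted p = 0.0489) but not on FPKM (0.64, adjusted p = 0.0559 from limma) nor in the scaled fragment fit (0.15, adjusted p = 0.651). Itgav, its alpha partner, had WT values of 2.34, 2.47 and 2.68 FPKM and Cfp1-cKO values of 2.73, 3.82 and 4.94 FPKM (log2 fold change 0.44, adjusted p = 0.112 from limma).

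Itga2b, the fibrinogen receptor subunit of platelets, measured 0.218, 0.263 and 0.204 FPKM in the WT libraries, against 0.565, 0.682 and 0.366 FPKM in those of Cfp1-cKO. It was not called in the fragment fit (log2 fold change 1.18, adjusted p = 0.0531 from voom of limma). Beside it, 2 of 6 platelet markers were tested, 1 of them through its Cfp1-cKO values. Both were called higher on FPKM and 0 after scaling, beside 21.1% and 3.73% of all tested genes. The 6 markers summed to 4.88 to 9.68 FPKM in WT and 11.5 to 31.6 FPKM in Cfp1-cKO hearts. Itgb3, the platelet partner of Itga2b, ranged from 0.702 to 1.38 FPKM over the 6 libraries, Itga8 from 1.02 to 3.09, Itgb6 from 0.0895 to 0.917 and Itgb8 from 0.199 to 0.748 FPKM. These last 4 overlapped between genotypes and were not called by either fit.

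Itga9 and Itga4 bind the adhesion molecule Vcam1 and forms of fibronectin. Itga9 (chromosome 9 from 118606690 to 118901003) had WT values of 4.51, 2.13 and 8.40 FPKM and Cfp1-cKO values of 12.7, 13.8 and 19.9 FPKM, with no overlap but a wide spread within WT. Its log2 fold change came to 1.57 (SE 0.37, limma adjusted p = 0.0234), and 1.18 (adjusted p = 0.0888) after scaling. The call was lost without WT replicate 1, without Cfp1-cKO replicate 2 and without Cfp1-cKO replicate 3. Itga4, which leukocytes also carry, measured 0.199, 0.114 and 0.250 FPKM in the WT libraries, against 0.356, 0.584 and 0.365 FPKM in those of Cfp1-cKO. It was called in the fragment fit (log2 fold change 1.23, adjusted p = 0.0414 from voom of limma), but not after scaling (adjusted p = 0.222) nor when any 1 library other than WT replicate 3 was left out. Set against Ptprc, Itga4 overlapped between genotypes.

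**Figure D4:**
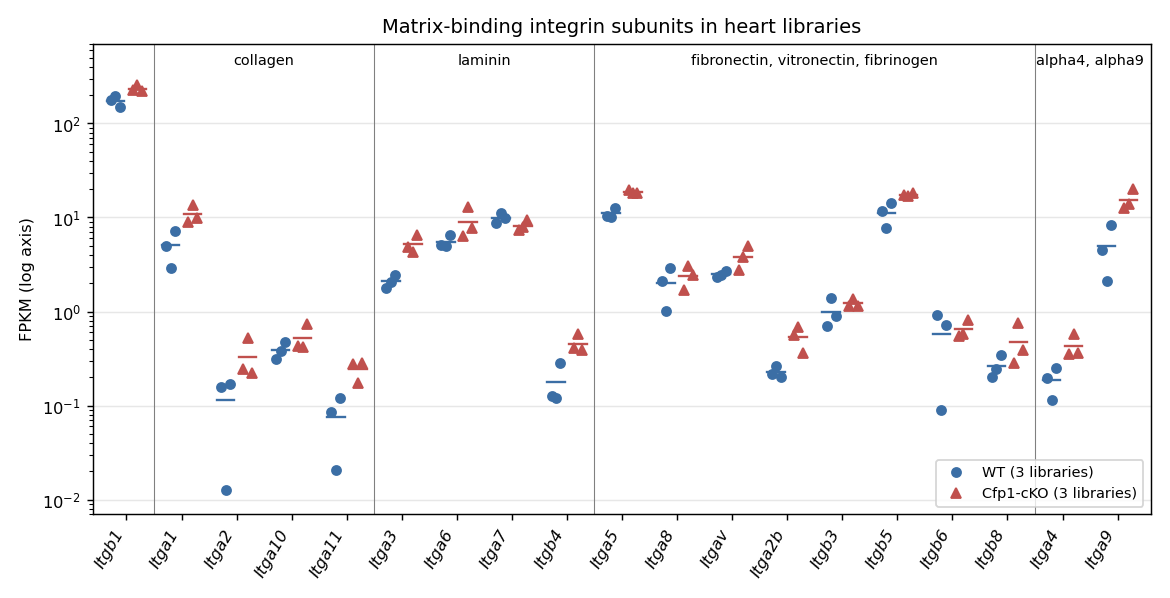
FPKM (log axis) of the 19 matrix-binding integrin subunits, grouped by ligand with Itgb1 at the left, 1 symbol per library, blue circles for WT, red triangles for Cfp1-cKO and short lines for means. Itgb1 exceeds 151 FPKM in every library, and Itga7 is the tested subunit here whose Cfp1-cKO mean lies below its WT mean.

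Of the 11 laminin chains, 8 were tested on FPKM, and 2 of these, among them Lamb3, were called higher and 0 lower, a share near the 21.1% of all tested genes. The fragment fit took in 10 chains and called 4 higher, beside 25.8% of all its genes, among them Lama3, Lamb3 and Lamc3. At an unadjusted limma p under 0.05, 5 of the 8 were higher and 0 lower. Lama3 and Lamb3 of epithelia were called higher, Lamb3 losing its call after scaling. The chains of muscle and vessel walls were not called before scaling. The log2 fold change on FPKM was nonetheless 0.88 for Lama4 of vessel walls and 0.90 for Lamb3. A difference between epithelial and other chains was not tested. All laminins summed to 83.8, 91.1 and 120 FPKM in WT and to 112, 146 and 148 FPKM in Cfp1-cKO hearts, with overlap.

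Lamb3, a beta chain of epithelial anchoring laminin (chromosome 1 from 193207699 to 193343878), had WT values of 1.40, 2.45 and 1.26 FPKM and Cfp1-cKO values of 3.45, 3.89 and 4.61 FPKM. Its log2 fold change came to 0.90 (SE 0.20, limma adjusted p = 0.0205), and 0.58 (adjusted p = 0.134) after scaling. The call was also lost without WT replicate 1, without Cfp1-cKO replicate 2 and without Cfp1-cKO replicate 3. Lama3, an alpha chain of the same anchoring laminin, measured 0.287, 0.237 and 0.445 FPKM in the WT libraries, against 0.936, 0.954 and 1.37 FPKM in those of Cfp1-cKO, without overlap. In the fragment fit its log2 fold change was 1.78 (adjusted p = 0.00788 from voom of limma), and 1.24 (adjusted p = 0.0264) after scaling. Of laminin alpha FPKM, Lama3 made up 1.46%, 1.40% and 1.74% in WT, as against 3.42%, 2.66% and 3.71% in Cfp1-cKO hearts.

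Epithelial markers were also higher in Cfp1-cKO hearts. Cdh1, which encodes E-cadherin, had WT values of 0, 0.0116 and 0.0243 FPKM and Cfp1-cKO values of 5.60, 5.40 and 8.96 FPKM, and the summed level of the 5 general epithelial markers was 0.944 to 1.38 FPKM in WT and 23.4 to 38.9 FPKM in Cfp1-cKO hearts. These 5 and the 12 tested lung epithelium markers all passed the filter through their Cfp1-cKO values, so their calls add nothing to the levels. Per 100 FPKM of Cdh1, Lamb3 measured 21099 and 5188 FPKM in WT replicates 2 and 3, against 61.7, 72.0 and 51.5 in Cfp1-cKO hearts. Lama3 measured 2043 and 1830 FPKM in these WT libraries, against 16.7, 17.7 and 15.3 in Cfp1-cKO hearts. Itga3 and Itgb4 were also lower in Cfp1-cKO hearts on this measure. The WT ratios rest on 1 and 2 fragments of Cdh1, and WT replicate 1 had 0. In WT libraries Lamb3 had 150 to 305 fragments and Lama3 48 to 86, nearly without Cdh1. A ratio to a gene near 0 in WT falls when that gene rises, so it cannot show whether the chains followed the epithelial markers. The part of the epithelial markers in the levels of Lama3, Lamb3, Itga3 and Itgb4 was not tested. Lamc3, a gamma chain of nerve and other tissues, had 8, 3 and 12 fragments in WT, as against 57, 47 and 24 in Cfp1-cKO libraries, without overlap. It was called in the fragment fit (log2 fold change 2.64, adjusted p = 0.0189 from voom of limma), but not after scaling (adjusted p = 0.0764), nor when either WT replicate 1 or Cfp1-cKO replicate 2 was left out.

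The chains of the cardiomyocyte sheath did not pass the test on FPKM. Lama2, the alpha chain whose loss causes congenital muscular dystrophy, measured 9.99, 7.44 and 12.7 FPKM in the WT libraries, against 12.6, 13.7 and 17.0 FPKM in those of Cfp1-cKO (log2 fold change 0.50, adjusted p = 0.103 from limma), with a log2 fold change of 0.09 after scaling. Lamb1 had WT values of 13.1, 10.5 and 16.9 FPKM and Cfp1-cKO values of 15.1, 24.2 and 23.7 FPKM (log2 fold change 0.60, adjusted p = 0.0870 from limma). Lamb2, the beta chain of mature muscle and of neuromuscular junctions, measured 19.4, 30.4 and 28.1 FPKM in the WT libraries, against 18.5, 21.1 and 22.4 FPKM in those of Cfp1-cKO. These 3 chains overlapped between genotypes. The log2 fold change of Lamb2 was -0.30 (adjusted p = 0.256 from limma), -0.72 (adjusted p = 0.0656) after scaling and -0.84 (adjusted p = 0.0395) in the scaled fragment fit, the only fit that called it. Lamc1, the gamma chain of most laminins (chromosome 1 from 153218922 to 153332786), measured 29.6, 30.3 and 47.1 FPKM in the WT libraries, against 40.6, 55.8 and 53.6 FPKM in those of Cfp1-cKO, with overlap (log2 fold change 0.50, adjusted p = 0.116 from limma).

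The balance of the beta chains did not overlap between genotypes, although the levels of both chains did. Per 100 FPKM of Lamb2, Lamb1 had WT values of 67.5, 34.6 and 59.9 FPKM and Cfp1-cKO values of 81.4, 115 and 106 FPKM, with no overlap. Of beta chain FPKM, Lamb2 made up 57.2%, 70.1% and 60.8% in WT, as against 49.99%, 42.8% and 44.2% in Cfp1-cKO hearts. These ratios do not depend on the scaling between libraries, and they were chosen after the values were seen.

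The vessel wall chains also overlapped. Lama4 measured 6.42, 3.29 and 8.86 FPKM in the WT libraries, against 8.75, 15.8 and 10.9 FPKM in those of Cfp1-cKO (log2 fold change 0.88, adjusted p = 0.0727 from limma). Lama5 had WT values of 3.02, 5.95 and 3.46 FPKM and Cfp1-cKO values of 5.07, 5.36 and 7.71 FPKM (log2 fold change 0.48, adjusted p = 0.159 from limma). Beside them, 3 of 8 endothelial markers were called higher before scaling and 0 after it (1 at an unadjusted limma p under 0.05). Among all tested genes these shares were 21.1% before scaling and 3.73% after it. The endothelial markers summed to 146 to 226 FPKM in WT and 179 to 264 FPKM in Cfp1-cKO hearts. Lama1, the chain of the early embryo, had 0, 0 and 1 fragments in WT, as against 6, 7 and 4 in Cfp1-cKO libraries, or at most 0.0441 FPKM. Its ratio between genotypes was 18.7, with a 95% exact counting interval of 2.93 to 781, and it was not tested further.

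**Figure D5:**
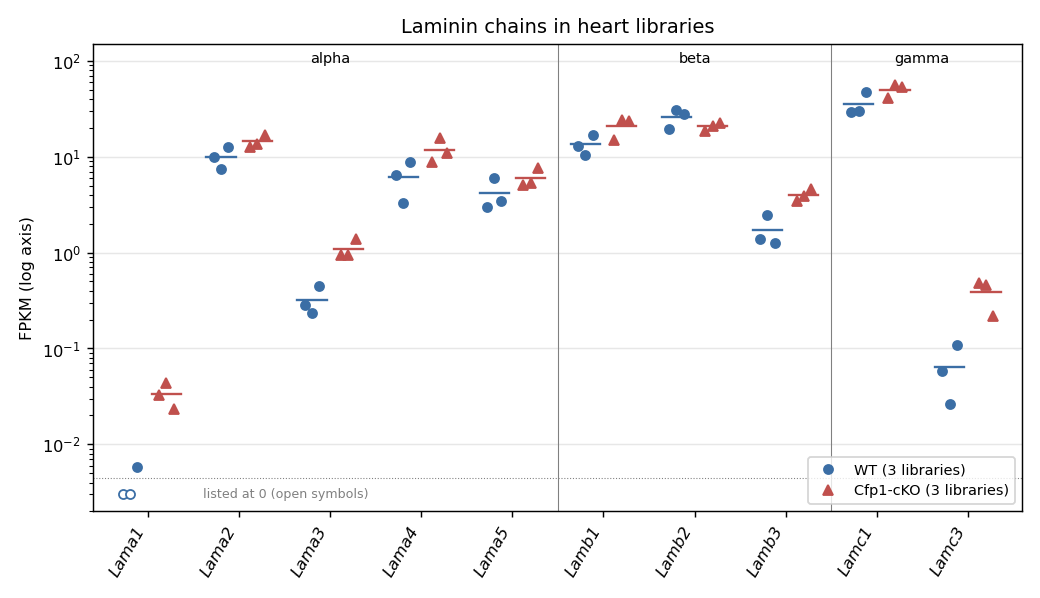
FPKM (log axis) of 10 of the 11 laminin chains, grouped as alpha, beta and gamma chains, 1 symbol per library, blue circles for WT, red triangles for Cfp1-cKO, short lines for means where no library is at 0 and open symbols for libraries listed at 0. Lama1, Lama3, Lamb3 and Lamc3 separate by genotype, and Lamb2 is the chain whose Cfp1-cKO mean lies below its WT mean.

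Genes that work with integrins and laminins were described by lists of known partners. Of 75 partner genes found 64 were tested on FPKM, and 25 were called higher and 3 lower, beside 21.1% and 1.68% of all tested genes. Without WT replicate 1, without Cfp1-cKO replicate 2 and without Cfp1-cKO replicate 3 the calls numbered 11, 11 and 14. Among adaptors and kinases of cell-matrix adhesions, 8 of 21 tested were called higher and 0 lower, and their median log2 fold change was 0.44. They were led by Actn1, an actin crosslinker (log2 fold change 1.304, adjusted p = 0.00354 from limma), Tns3, a tensin (0.92, adjusted p = 0.0109), Src, a kinase (0.89, adjusted p = 0.0121), and Zyx, zyxin (1.25, adjusted p = 0.0146). After scaling, Actn1, Tns3 and Src were still called, and Src had passed the filter through its Cfp1-cKO values. Ilk, a kinase adaptor used by most cells, was listed at 0 to 0.0219 FPKM in every library, so that its value may be a failed estimate. Among adaptors of blood cells, 4 of 11 were tested and 2 were called higher, Fermt3, the kindlin that activates leukocyte integrins (0.97, adjusted p = 0.0119), and Ptk2b, a kinase related to focal adhesion kinase (1.17, adjusted p = 0.0320). Both passed the filter through their Cfp1-cKO values, as did 3 of the 4.

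Ligands of leukocyte and alpha4 integrins were called higher in 4 of 7 tested cases, beside 21.1% of all tested genes, and in 2 after scaling, beside 3.73%. Icam1, the ligand of Itgal with Itgb2, measured 1.68, 2.04 and 1.26 FPKM in the WT libraries, against 5.65, 6.81 and 6.51 FPKM in those of Cfp1-cKO (log2 fold change 1.47, adjusted p = 0.00178 from limma, and 1.13, adjusted p = 0.00846, after scaling). Cdh1, the ligand of Itgae with Itgb7, was called too (limma adjusted p = 0.000157), but it passed the filter through its Cfp1-cKO values and had 0, 1 and 2 fragments in WT, so that no exact fold is given. Vcam1, the ligand of Itga4 and Itga9 (0.66, adjusted p = 0.0397), and Icam2 (1.015, adjusted p = 0.0463) were called before but not after scaling.

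Matrix ligands other than laminin were called higher in 4 of 9 cases and lower in 1, beside 21.1% and 1.68% of all tested genes. After scaling 1 was called higher and 1 lower, beside 3.73% and 3.25%. Npnt, nephronectin, a basement membrane ligand of Itga8, had WT values of 0.587, 0.306 and 1.33 FPKM and Cfp1-cKO values of 5.71, 3.998 and 6.28 FPKM (log2 fold change 1.89, adjusted p = 0.00336 from limma, and 1.62, adjusted p = 0.0108, after scaling). Npnt passed the filter through its Cfp1-cKO values. Itga8 itself overlapped between genotypes. Emilin1, a ligand of Itga9 (1.23, adjusted p = 0.0266), and Fbn1, fibrillin (1.19, adjusted p = 0.0280), were called before scaling only, as was Fn1, fibronectin (1.60, adjusted p = 0.0485). Vtn, vitronectin, was lower on both scales (-0.72, adjusted p = 0.0497, and -1.08, adjusted p = 0.0383).

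Basement membrane partners of laminin were called higher in 6 of 11 tested cases and lower in 0, beside 21.1% and 1.68% of all tested genes. Their median log2 fold change was 0.91. After scaling 2 of the 11 were called higher, beside 3.73% of all tested genes, and the median was 0.52. Agrn, agrin, which links laminin to dystroglycan, measured 4.68, 4.47 and 6.11 FPKM in the WT libraries, against 10.5, 13.2 and 13.4 FPKM in those of Cfp1-cKO (log2 fold change 1.14, adjusted p = 0.00565 from limma, and 0.75, adjusted p = 0.0192, after scaling). The collagen chain genes Col4a4 (1.44, adjusted p = 0.0109) and Col4a3 (1.12, adjusted p = 0.0180), known from kidney and lung basement membranes, and Ntn4 (0.84, adjusted p = 0.0211) were also higher, Col4a3 having passed the filter through its Cfp1-cKO values, and Col4a4 kept its call after scaling (adjusted p = 0.0342).

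The other laminin receptor of muscle, the dystroglycan complex, was called lower in part. Of its 12 tested genes 1 was called higher and 2 lower, beside 21.1% and 1.68% of all tested genes. After scaling 0 were called higher and 3 lower, beside 3.73% and 3.25%. Sgca, the sarcoglycan made by striated muscle only, had WT values of 37.6, 40.4 and 36.4 FPKM and Cfp1-cKO values of 15.03, 13.9 and 18.4 FPKM (log2 fold change -1.23, adjusted p = 0.00276 from limma). Utrn, utrophin, was higher (0.61, adjusted p = 0.0444) before but not after scaling. Cardiomyocyte markers moved with Sgca, 4 of 7 being called lower and 0 higher, and their part in its level was not tested.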

How the data were processed

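RNA sequencing was done on hearts of 3 WT and 3 Cfp1-cKO samples. The authors deposited FPKM per gene for 26881 genes, 1 column per library. The paper names Bowtie2, TopHat, DESeq and the address of a chicken genome, while the processing notes of the submitters list CASAVA, TopHat2, HTSeq 0.6.0, HISAT2 2.1.0, DESeq2, Bowtie2 2.2.3 and the build GRCm38 in no stated order. The kit keeps no strand, and extraction text on retinas could not be related to these hearts. A second table held the same FPKM without annotation and was not used.

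FPKM were whole multiples of 1 fragment (tolerance 0.02) in all libraries for 98.9% of genes. For 23964 genes this held at the GENCODE exon length, the length used to work back library totals. For 2616 others the smallest fragment numbers that made all values whole were taken. Itga1, Itga2, Itga5, Itgb5, Itgb7, Itgb2l and Lama1 are among these, so their fragments are fitted. Replicates differed beyond sampling noise (chi-square per degree of freedom 28.2 to 73.1). Same-numbered libraries had correlations of deviations of 0.108, 0.0361 and 0.104, so numbers were not taken as pairs. Genotypes were compared with limma 3.58.1 (R 4.3.3, trend) on log2(FPKM + 1) for the 11017 genes averaging 1 FPKM or more. Calls needed a log2 fold change beyond 0.5 either way with an adjusted p (Benjamini-Hochberg) under 0.05. Voom of limma on fragments was added after seeing the data and called 3943 of 14549 genes. The procedure was tested on simulated data.

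Members and lists were chosen with earlier results of these data known. Values are given for each called gene, for 15 genes of a set list and for genes without overlap between genotypes; for each partner list at most 4 called genes, by adjusted p, are named. Alternatives covered pseudocount, filter, scaling, removal of mitochondrial and haemoglobin genes, library weights, trend, fold threshold, the replicate block and each library left out. Promoters came from RefSeq (GRCm38.p6). Coordinates are those of the deposited table, with exon overlaps from GENCODE. Intervals and limits of a count of 0 (3 fragments) cover counting error only. Some genes are not reported here.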

Additional observations from a re-analysis of the deposited data

How the results depend on the processing

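The count of 7 called integrin and laminin genes was 3 after median-of-ratios scaling, 14 with library weights, 16 in the fragment fit and 4 at a fold threshold of 1, and 3 to 11 when 1 library was left out (3 without WT replicate 1 or Cfp1-cKO replicate 2, 4 without Cfp1-cKO replicate 3, 11 without WT replicate 3). It was 6 with the replicate block, against 1749 genes called among all tested, and no other setting moved it by over 1.5 times. In the fragment fit the 16 became 8 after scaling and 14 with the replicate block, and 7 to 21 with 1 library left out. The 2510 calls among all tested genes became 1609 without a filter, 769 after scaling, 1406 without mitochondrial and haemoglobin genes, 4399 with library weights, 3943 in the fragment fit, 1275 in the scaled fragment fit and 743 at a fold threshold of 1, and 588 to 2789 with 1 library left out. The 28 partner calls became 13 after scaling, 44 with library weights, 14 in the scaled fragment fit and 15 at a fold threshold of 1, and 11 to 30 with 1 library left out. The cause of these moves was not tested beyond the fewer libraries or genes that the settings themselves bring.

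Directions turned for genes that were called neither on FPKM nor in the fragment fit before scaling. After scaling the log2 fold changes were -0.022 for Itgb1, -0.093 for Itga8 and -0.064 for Itgb3, and in the scaled fragment fit -0.11 for Itgb1, -0.22 for Itga8, -0.16 for Itgb3, -0.025 for Lamc1, -0.11 for Itgb3bp, -0.23 for Itgam and -0.11 for Itga10. Lamb2, called lower in the scaled fragment fit, was at 0.046 with library weights. With 1 library left out, Itga8 ranged from -0.060 to 0.42, Itgad from -0.31 to 0.18 and Itgb6 from -0.36 to 1.32. Under the replicate block the calls lost were those of Itga1, and of Itga4 and Itgb4 in the fragment fit. Depth limits Itgb2l and Lama1, which had under 10 fragments in each library.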
